A study of Homo sapiens with 5 samples.

Results

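Clone-named windows are places on the genome that carry the provisional name of an annotated transcript rather than a gene symbol. They come from a table of 1303 windows of 4000 bp that the study listed as specific to its prostate cancer cells, and a window was taken when its name begins with RP, CT, AC, AL, AP, CH or KB and digits, followed by a hyphen or a dot. The rule gave 295 windows, of which 223 begin with RP, 47 with AC, 16 with AL and 9 with AP, while no name began with CT, CH or KB and digits. They lie on 23 chromosomes, with the most on chromosome 17 (28 windows), chromosome 1 (25 windows) and chromosomes 7 and 9 (23 windows each), and 140 belong to the plus and 155 to the minus strand. The other 1008 windows of the table serve as the comparison, and 44 of them also carry clone-like names (CTD- or KB-, for example) that the rule does not take. With these added as members, 166 windows held peaks of at least 2 replicates and 49 of all 4, in place of the 149 and 45 given below.

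The study mapped G4 structures in C4-2 cells by BG4 ChIP-seq, in which chromatin is immunoprecipitated with BG4, an antibody against folded G4s, and sequenced. C4-2 cells are an established line of human prostate cancer, derived from LNCaP, and the labels add the words prostate cancer tissue although the material is this line. All 4 ChIP libraries are replicates of 1 condition, with no treatment named, and the input library was not analysed here. The authors called peaks in each replicate separately, which gave 8036, 6192, 6805 and 4427 peaks for replicates 1 to 4. The lists hold no read counts, so the depth of the libraries is unknown, and replicate 4, with the fewest peaks, also had the fewest in these windows. Positions of windows and peaks are those of GRCh37 (hg19).

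G4s form where runs of guanines stack into planar tetrads, and they are frequent near the start sites of active genes. Most clone names stand for transcripts that had not been given a symbol when the annotation was made, largely long non-coding RNAs, antisense transcripts and pseudogenes, and are built from the name of the sequenced genomic clone. Such transcripts often begin close to the promoter of a named gene and run away from it on the opposite strand, so that 1 guanine-rich promoter can lie in the windows of both.

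Sequence at the windows themselves was not read, because the genome used here is of another build. For genes that share a window with a clone-named transcript, RefSeq (GRCh38.p14) gives the promoter from 250 bases before to 50 after the start. Of 143 different gene partners 79 had an entry, too few for a check over the list, which is therefore void. The motif searched was 4 runs of at least 3 guanines (GGG) separated by loops of 1 to 7 bases of any kind, on both strands, with overlapping matches counted once. It occurs in 24.1% of the promoters of 27305 RefSeq genes. Among 550 genes of other windows that overlap no clone-named window, 42.4% have it, so a match is common at genes of the table. Below are the promoters of 5 partners with 1 listed start whose clone-named window held peaks of at least 3 replicates, printed 5′ to 3′ on the gene's strand with the motif in capitals. NUDT14, which is in none of the gene lists used below, was chosen after its values were seen.
ZNF470, chr19:56567218-56567517, plus strand, no match: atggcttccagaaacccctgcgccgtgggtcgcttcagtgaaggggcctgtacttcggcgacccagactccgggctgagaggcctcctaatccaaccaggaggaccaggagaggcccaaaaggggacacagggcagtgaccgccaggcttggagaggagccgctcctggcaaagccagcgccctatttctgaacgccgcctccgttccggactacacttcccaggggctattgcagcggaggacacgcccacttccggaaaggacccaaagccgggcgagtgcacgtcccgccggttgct
GALNT3, chr2:165794198-165794497, minus strand, 1 match: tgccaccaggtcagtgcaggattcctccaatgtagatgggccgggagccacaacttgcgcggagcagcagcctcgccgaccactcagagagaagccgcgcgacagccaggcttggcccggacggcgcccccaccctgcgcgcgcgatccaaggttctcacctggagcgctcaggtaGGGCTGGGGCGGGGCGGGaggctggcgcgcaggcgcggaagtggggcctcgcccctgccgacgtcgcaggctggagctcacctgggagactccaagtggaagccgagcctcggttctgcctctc
CDKN2B-AS1, chr9:21994541-21994840, plus strand, no match: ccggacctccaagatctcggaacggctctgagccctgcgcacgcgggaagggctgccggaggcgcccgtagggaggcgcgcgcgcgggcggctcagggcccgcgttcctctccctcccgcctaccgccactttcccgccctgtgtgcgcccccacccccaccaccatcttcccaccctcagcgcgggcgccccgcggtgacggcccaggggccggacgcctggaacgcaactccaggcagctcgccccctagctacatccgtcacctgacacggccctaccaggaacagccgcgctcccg
SCRT2, chr20:675753-676052, minus strand, no match: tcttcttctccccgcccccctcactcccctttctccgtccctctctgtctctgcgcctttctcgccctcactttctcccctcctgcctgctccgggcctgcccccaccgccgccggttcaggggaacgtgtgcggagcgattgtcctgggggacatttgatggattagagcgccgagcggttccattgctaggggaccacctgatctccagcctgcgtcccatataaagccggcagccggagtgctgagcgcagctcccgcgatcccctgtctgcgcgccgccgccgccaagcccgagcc
NUDT14, chr14:105181263-105181562, minus strand, 1 match on the opposite strand: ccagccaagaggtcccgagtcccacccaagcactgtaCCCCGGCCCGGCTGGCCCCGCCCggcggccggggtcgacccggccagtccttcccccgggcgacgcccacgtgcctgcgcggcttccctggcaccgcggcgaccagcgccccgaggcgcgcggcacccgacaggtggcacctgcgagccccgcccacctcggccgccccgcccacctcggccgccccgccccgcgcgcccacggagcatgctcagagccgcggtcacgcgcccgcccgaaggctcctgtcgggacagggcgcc
The match of GALNT3 begins 74 bases before the start, and that of NUDT14 begins 213 bases before it. The absence of a match says only that these letters are not in the 300 bases shown. Beside the strongest clone-named window lies MIR3180-1, a microRNA gene with several near-identical copies, and its mature 5p arm has the following RefSeq sequence, with the seed (bases 2 to 8) in capitals.
hsa-miR-3180-5p: cUUCCAGAcgcuccgccccacgucg

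No clone-named window was without a peak, which is no finding, because the table lists places with G4 peaks. A peak was assigned to a window when they overlapped by at least 1 bp. In 20 clone-named windows (6.78%) no summit lay inside the window, so only the side of a peak reached it. Peaks of 1 replicate were found in 146 windows, of 2 replicates in 63, of 3 in 41 and of all 4 in 45. Support counts a peak anywhere in the window, so peaks of different replicates need not lie at the same site. In RP11-676J15.1, for example, the peaks of replicates 1 and 2 do not overlap. At least 2 replicates thus supported 149 windows (50.5%), where the share over all 1303 windows was 49.0%. All 4 replicates supported 15.3% of the clone-named windows, beside 12.8% of all windows. Both shares of the clone-named windows were near those of the whole table.

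By replicate, 178, 142, 159 and 96 of the 295 windows held a peak in replicates 1 to 4, where 62.4%, 44.6%, 52.7% and 28.7% of all windows did. The share averaged 48.7% ± 11.9 (SD, n = 4 replicates) in clone-named and 46.6% ± 14.98 in other windows. The difference of 2.102 ± 3.53 percentage points was smaller than its spread, and it was positive in 3 of 4 replicates (exact two-sided permutation test that flips signs within replicates, p = 0.375, Benjamini-Hochberg adjusted over 5 tests 0.469). With 4 replicates this test cannot give a p below 0.125, so none of the 5 tests can reach 0.05. Without the mitochondrial-like windows described below the difference was -0.179.

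**Figure D1:**
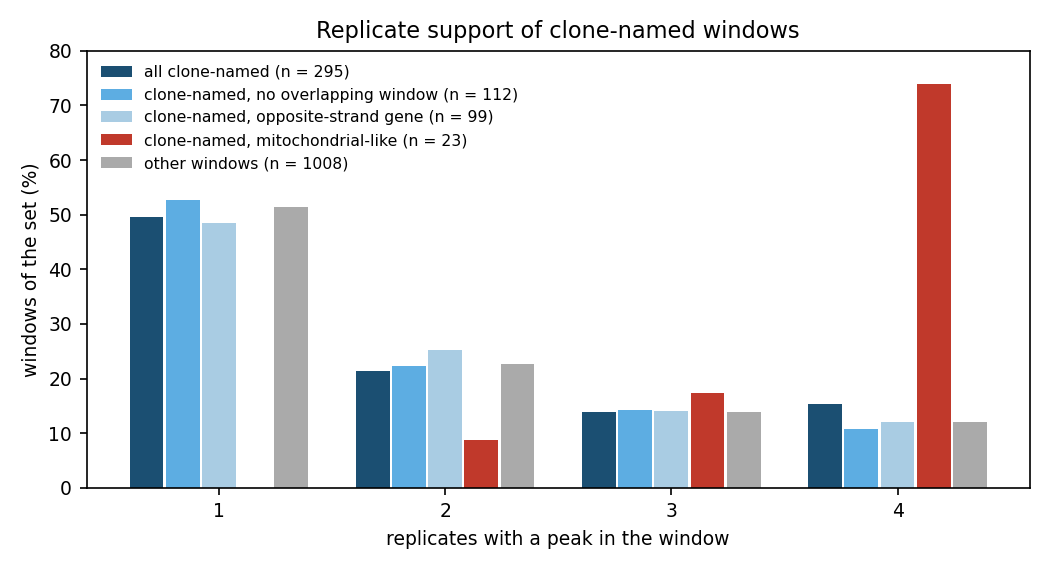
Percent of the windows of each set (y axis) with a peak in 1, 2, 3 or 4 replicates (x axis), for clone-named windows, 3 of their classes and the other windows. The bars of all clone-named windows are close to those of the other windows, and the mitochondrial-like windows stand apart with 17 of 23 in all 4 replicates.

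The median peak was lower in windows with 1 replicate than in windows with all 4, in each of the 4 replicates (not tested, since both depend on the strength of a peak). Fold enrichment is the signal at the summit of a peak over the local background, as the authors' peak caller gave it, and the highest peak of a replicate stands for the window. Windows with a peak of 1 replicate had a median fold enrichment of 6.11 in replicate 1 (54 windows), 5.86 in replicate 2 (36 windows), 5.63 in replicate 3 (37 windows) and 5.23 in replicate 4 (19 windows). Windows with all 4 replicates had medians of 8.30, 8.14, 7.95 and 6.62 in the same order. The median over all windows with a peak was 6.45 ± 0.422 in clone-named and 6.38 ± 0.233 in other windows (SD, n = 4 replicates). Their difference of 0.0718 ± 0.380 was within the spread, with the higher median in clone-named windows in 2 of 4 replicates (exact permutation test, p = 0.625, adjusted 0.625), and without replicate 1 it was -0.0773.

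Among the windows with all 4 replicates, the highest mean fold enrichment was that of RP11-958N24.1 (chr16:15003408-15007408, plus strand). The 4 replicates gave 22.7, 24.1, 16.6 and 19.4 (mean 20.7 ± 3.37, SD), with summits 212 to 359 bp upstream of the window centre. The lowest of these values was above the highest of every other clone-named window but the next. Its partner windows are named hsa-mir-3180-3, on the same strand, and MIR3180-1, which the study lists on the opposite strand. RefSeq puts MIR3180-1, the microRNA whose sequence is given above, on the plus strand, that of RP11-958N24.1. The listed strand was kept in the counts of opposite-strand pairs below. Short reads may not tell near-identical copies apart, and this was not tested here.

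The next place was the RP11 window at chr10:481501-485501, which overlaps no other window. Its values were 17.3, 17.4, 14.4 and 11.7 (mean 15.2 ± 2.73), and its peaks were wide, with 1277, 999, 1089 and 1235 bp. Their summits lay 1042, 600, 904 and 986 bp upstream of the centre, so that in no replicate was the summit near the annotated position. RP4-800G7.2 (chr7:148980372-148984372), opposite a window of SNORD112, a small nucleolar RNA gene, had 13.4, 15.7, 12.5 and 10.1 (mean 12.9 ± 2.32), with summits 100 to 128 bp upstream of the centre. AC090505.4 (chr3:194487441-194491441) overlaps no other window and had 14.6, 11.7, 7.61 and 11.4 (mean 11.3 ± 2.86). Its fold enrichment differed 1.92-fold between the highest and the lowest replicate, while its summits stayed between 552 and 573 bp upstream.

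RP11-353N14.4 (chr17:77891156-77895156) overlaps no other window and had 13.3, 11.0, 8.98 and 7.38, with summits 45 to 143 bp upstream. RP11-231C14.3 and RP11-345J4.5 on chromosome 16 share all their peaks (11.6, 10.02, 10.3 and 5.56) and lie on the strand of BOLA2, which acts in iron-sulfur protein maturation, and opposite SLX1B, a subunit of a structure-specific endonuclease, and SULT1A4, a sulfotransferase. All 3 genes have near-identical copies elsewhere on this chromosome. RP11-32B5.7 on chromosome 15, with no overlapping window, had 8.97, 11.1, 9.54 and 7.07 and summits from 0 to 119 bp from the centre. AP000911.1 on chromosome 11, on the strand of IGSF9B, a cell adhesion gene of the immunoglobulin superfamily, had 12.8, 6.79, 8.98 and 8.06. RP11-152F13.7 on chromosome 15 (9.43, 11.4, 9.65 and 5.94) and RP11-2C24.4 on chromosome 16 (7.69, 10.6, 11.2 and 6.39) complete the first 10 places, and neither overlaps another window. Of these 10 places 6 therefore have no window of a named gene beside them. Replicate 4 had the lowest value in 7 of the 10.

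**Figure D2:**
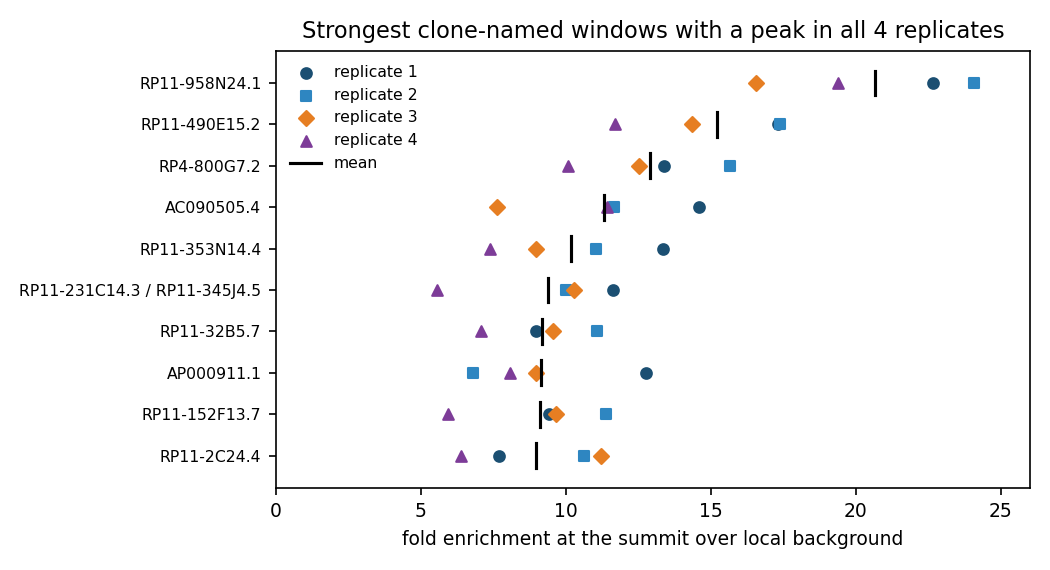
Fold enrichment at the summit (x axis, ratio over local background) in each of the 4 replicates for the 10 places with the highest mean among clone-named windows with a peak in all 4 (y axis), with the mean as a bar. The first 3 places keep every replicate at 10.1 or more, and the replicates of the lower places overlap one another.

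Of the 295 windows, 112 overlap no other window of the table, 140 overlap a window named for a gene and 43 overlap clone-named windows only. For partners, the clone-like names that the rule does not take (CTD-, for example) count here as clone names and not as genes. Classes were set by the partner, with the mitochondrial-like windows as a class of their own. Of the 112 windows with no overlap, 53 (47.3%) held peaks of at least 2 replicates, and of the 99 with a gene on the opposite strand 51 (51.5%) did, both near the 49.0% of all windows. Among the 18 with a gene on the same strand the number was 7, and among the 43 with clone-named partners only it was 15 (34.9%). These windows share peaks, since the 43 clone-only windows hold 21 merged regions between them, so they are not independent. The share with a peak was 54.1% ± 11.1 in windows with a gene partner and 45.8% ± 13.5 in windows with no overlap (SD, n = 4 replicates). The difference of 8.35 ± 9.08 percentage points was positive in 3 of 4 replicates (exact permutation test, p = 0.25, adjusted 0.417), and it was 1.04 without the mitochondrial-like windows.

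The mitochondrial-like class holds 23 clone-named windows in groups that also contain a window named for a nuclear copy of mitochondrial DNA. Such copies of the genes for respiratory chain subunits, here MTND1, MTND2, MTND5, MTND6 or MTATP6 pseudogenes among others, resemble the mitochondrial genome closely. All 23 held peaks of at least 2 replicates, and 17 held peaks of all 4. Over all windows 12.8% held peaks of all 4. The 33 mitochondrial-like windows that are not clone-named had close values, with 93.9% in at least 2 replicates and 72.7% in all 4. Fold enrichment in the 17 windows lay between 5.39 and 9.20, with a median SD over replicates of 0.807 and a median ratio of highest to lowest replicate of 1.25. In the 28 clone-named windows with all 4 replicates outside this class it lay between 4.10 and 24.1, with a median SD of 2.22 and a median ratio of 1.61. In some of the 17 windows the highest peaks of the replicates lay at different sites, so their SD does not describe 1 site. In RP11-475J5.6 the summits were at 1001, -1354, 2271 and -1449 bp from the centre along the strand. Windows with the same highest peaks were counted singly in these medians. RP11-846F4.1 (chr17:22016943-22020943), beside MTRNR2L1, varied least, with 7.78, 7.99, 7.95 and 8.15. RP5-857K21.5 (chr1:562390-566390), beside MTND1P23 and MTND2P28, had 7.52, 8.25, 8.38 and 7.82. Reads from nuclear copies and from mitochondrial DNA cannot be told apart in these files.

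**Figure D3:**
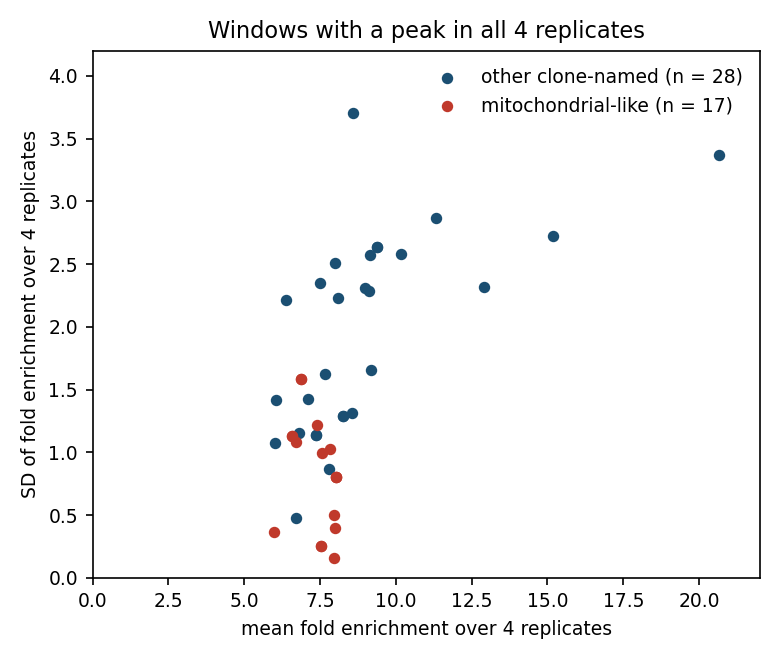
Mean fold enrichment over 4 replicates (x axis) against its SD (y axis) for the 45 clone-named windows with a peak in all 4, 17 mitochondrial-like and 28 others. Windows that share their peaks lie on the same point, and the mitochondrial-like windows have an SD of 1.59 or less while the others reach 3.70.

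Groups of overlapping windows with at least 3 clone-named members were found in 6 places. The largest, on chromosome 5 (chr5:99380078-99392749), has 11 windows, of which 9 are clone-named (RP11-475J5.4 to RP11-475J5.11 and AC113407.1), beside MTND5P10 and MTATP6P2. It held 8, 6, 7 and 5 peaks in replicates 1 to 4, in 6 merged regions, with fold enrichments from 4.05 to 9.02. A group on chromosome 17 (chr17:22016943-22031938) has 9 windows, 5 of them of the RP11-846F4 series, and held 3, 3, 4 and 3 peaks. Peaks of both groups were thus found in every replicate. In contrast, 4 windows on chromosome 22 (AL021707.1, AL021707.2, RP3-508I15.18 and RP3-508I15.19) rest on 1 peak of replicate 1, with 6.30, and 3 windows on chromosome 9 (RP11-12A20.4, RP11-12A20.6 and RP11-12A20.7) rest on 1 peak of replicate 3, with 4.61. The trio RP11-340I6.7, RP11-340I6.8 and AC092634.1 on chromosome 7 shared 1 region of replicates 1 to 3 (7.10 to 9.24), and the trio RP11-744K17.2, RP11-744K17.7 and RP11-744K17.8 on chromosome 17 shared 1 of replicates 1 and 2 (4.84 to 6.12). Windows counted singly therefore repeat the same peaks, and counting overlapping windows of a class once left 121 windows with at least 2 replicates and 32 with all 4.

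Summits lay near the centre less often in clone-named than in other windows, in every replicate. Of the summits inside clone-named windows, 31.5% ± 3.32 (SD, n = 4 replicates) lay within 250 bp of the window centre, against 52.6% ± 0.746 in other windows. The difference was -21.1 ± 3.79 percentage points. It was negative in 4 of 4 replicates, with 32.3%, 35.8%, 28.1% and 29.9% in clone-named and 51.7%, 52.5%, 53.5% and 52.7% in other windows. The 2 sets of replicate values do not overlap (exact permutation test, p = 0.125, the smallest it can give, adjusted 0.3125). The median distance was 505 ± 70.5 bp in clone-named and 222 ± 2.45 bp in other windows, and 73.3% ± 1.22 against 84.3% ± 0.907 of the summits lay within 1000 bp.

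The difference was also present where no other window overlaps. In the 112 clone-named windows of this kind 39.7% ± 3.71 of the summits lay within 250 bp, and in the other windows of this kind 61.9% ± 1.37 did (difference -22.2 ± 2.36, negative in 4 of 4 replicates, exact permutation test, p = 0.125, a comparison added after the data were seen). Without the mitochondrial-like windows, where 13.1% ± 2.99 of the summits lay within 250 bp, it was -19.5. The share was 32.7% ± 6.31 with an opposite-strand gene and 32.2% ± 12.9 with clone-named partners only. The 18 clone-named windows with a same-strand gene, with 30 summits, went the other way (60.9% ± 9.86). Among the other windows it was 42.0% ± 1.84 in those with an overlapping window and 18.0% ± 2.21 in the mitochondrial-like ones. In clone-named windows 52.7% ± 1.95 of the summits lay upstream of the centre, where upstream follows the strand of the named transcript. Whether the centre is the start site of the transcript was not tested, because no annotation of this build was used.

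**Figure D4:**
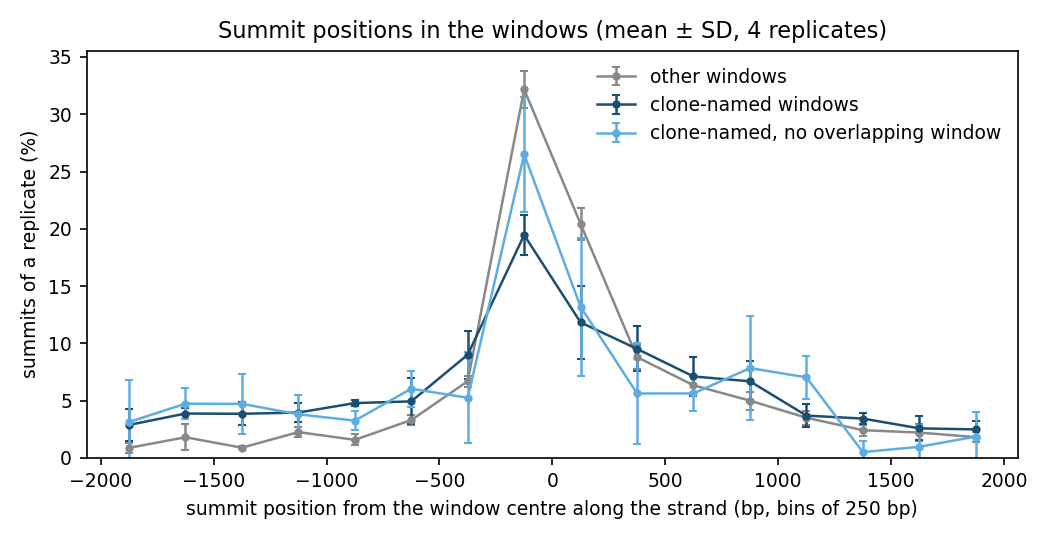
Percent of the summits of a replicate (y axis, mean ± SD of 4 replicates) in bins of 250 bp by their position from the window centre along the strand (x axis, bp, negative values upstream), for clone-named windows, clone-named windows with no overlapping window, and other windows. All 3 curves are highest just upstream of the centre, and the curve of the clone-named windows is lower there and higher toward both ends than that of the other windows.

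In opposite-strand pairs, summits lay closer to the centre of the named gene than to that of the clone-named transcript. Over all such pairs the median distance was 437.5 ± 67.6 bp to the clone-named centre and 267 ± 67.3 bp to the partner's centre (SD, n = 4 replicates), a difference of 170 ± 88.0 bp that was positive in 4 of 4 replicates (exact permutation test, p = 0.125, the smallest it can give, adjusted 0.3125). Without the mitochondrial-like windows it was 211 bp. Outside that class there are 105 pairs with 99 clone-named windows, and the median summit was closer to the partner in 67 (63.8%) and to the clone-named transcript in 38. Of the 105, 58 are divergent, meaning that the partner's centre lies upstream of the clone-named one and both transcripts run apart. In these the partner was closer in 44, with medians over pairs of 125 bp to the partner and 418.5 bp to the clone-named centre. In the 47 pairs whose transcripts run across each other's start, the partner was closer in 23 and the clone-named transcript in 24, and both medians were 406 bp. The 29 pairs with centres at least 1000 bp apart divided as evenly, 14 to 15.

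**Figure D5:**
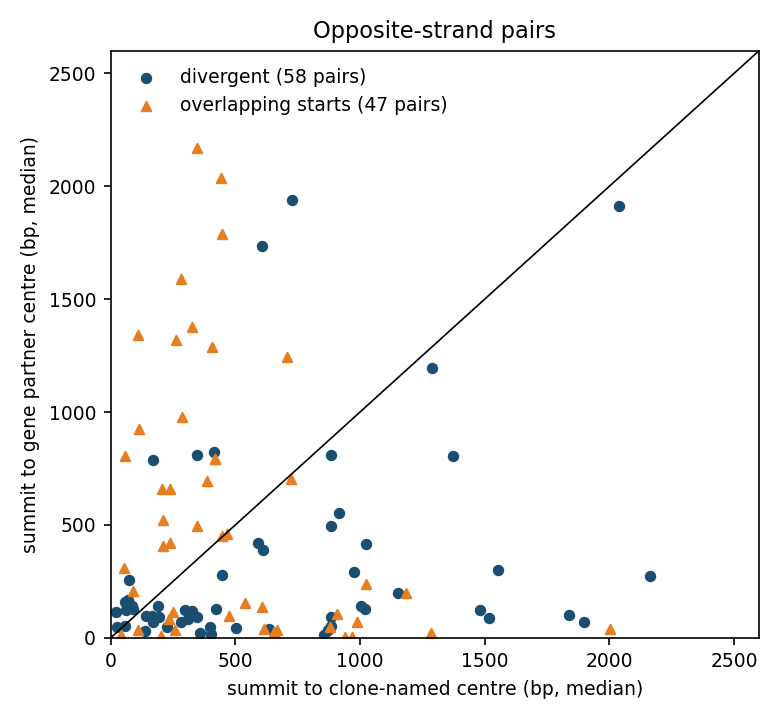
Median distance from the peak summits to the clone-named centre (x axis, bp) against that to the gene partner's centre (y axis, bp) for 58 divergent and 47 overlapping opposite-strand pairs outside the mitochondrial-like class, with the line of equal distance. Points below the line, 67 of 105, are pairs whose summits are closer to the gene partner's centre.

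Partner genes were grouped in lists set from the names in the table. Among cell cycle, tumour suppressor and transcription factor genes, 11 clone-named windows were found, of which 7 held peaks of at least 2 replicates (63.6%, beside 49.0% of all windows), with a median highest fold enrichment of 7.04. The median over all windows was 6.47. AC005498.3 (chr19:57047944-57051944) is divergent to ZFP28, a zinc finger gene, and had 7.85, 10.6, 6.43 and 5.09. Its 4 summits lay 14 to 66 bp from the centre of ZFP28 but 307 to 393 bp from its own. AC007228.11 (chr19:57076780-57080780), divergent to the zinc finger gene ZNF470, had 6.99, 7.61, 7.49 and 5.12, with summits 36 to 133 bp from the gene's centre. All 4 replicates thus held peaks at both zinc finger pairs, and the promoter of ZNF470 above has no match to the motif.

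RP11-149I2.4 (chr9:21993481-21997481) lies beside CDKN2A, a tumour suppressor gene of the cell cycle, and CDKN2B-AS1, the antisense RNA of that locus. It had 5.01, 6.02 and 7.04 in replicates 1 to 3 and no peak in replicate 4, with summits 53 bp upstream, 74 bp downstream and 928 bp upstream of its centre. The RP5 window at chr20:654444-658444, on the strand of SCRT2, a transcriptional repressor of neural cells, had 6.50, 6.05 and 6.70 in replicates 1 to 3. Here the summits lay 36 to 139 bp from the clone-named centre and 415 to 518 bp from the centre of SCRT2's window. By window centres this is the reverse of the order at the zinc finger pairs. The centre of SCRT2's window was not compared with the RefSeq start of the promoter above, which is of another build. AC105247.1 on chromosome 18, opposite CABLES1, a regulator of cyclin-dependent kinases, had 6.55, 4.57 and 5.44 in replicates 1 to 3. RP11-295G24.4 on chromosome 9, beside TSC1, an inhibitor of mTOR signalling, and GFI1B, a repressor of blood cells, had 8.39 and 8.01 in replicates 1 and 3, with summits over 2000 bp upstream of its centre. The window of TSC1 itself held peaks of 4 replicates.

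Other members of this list rest on fewer replicates. RP11-281O15.8, divergent to ZNF454, had 7.60 and 6.78 in replicates 1 and 4, with summits 63 to 74 bp from the gene's centre and 1894 and 1905 bp from its own. RP11-211G3.2, opposite BCL6, a repressor of lymphocyte genes, had a peak in replicate 2 only (4.28), 2003 bp from its own and 38 bp from BCL6's centre. RP11-154H23.3 at FOXP1, a forkhead transcription factor, had 5.60 in replicate 2, RP11-283G6.3 at BHLHE41, a circadian repressor, had 8.28 in replicate 2, and AC018470.1 at SP9 had 5.50 in replicate 1.

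Signalling partners gave 10 windows, of which 3 held peaks of at least 2 replicates and none of 3 or 4, beside 49.0% of all windows with at least 2 and 12.8% with all 4, with a median highest fold enrichment of 6.14. The 3 were RP11-502I4.3 at MAP2K5, the kinase upstream of ERK5 (5.52 and 5.34 in replicates 2 and 3), AC147651.3 at PDGFA, a growth factor (6.81 and 7.22 in replicates 1 and 3), and RP4-753F5.1 at PTGFRN (4.89 and 6.34 in replicates 3 and 4). RP11-231D20.2 (chr8:42126715-42130715), divergent to IKBKB, the kinase that releases NF-κB, had a peak in replicate 3 only, of 4.79, which lay 136 bp upstream of its own centre and 31 bp from that of IKBKB. RP4-676L2.1 on chromosome 8, on the strand of DUSP4, a phosphatase of MAP kinases, had 10.2 in replicate 1 only, 2381 bp from its centre, although the window of DUSP4 itself held peaks of 4 replicates. The windows at ADCY6 (7.32), GNAO1 (4.30), PLCB4 (5.13), SEMA4D (7.32) and RHOT1 (5.93) each had a peak of 1 replicate.

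Partners in glycosylation and metabolism gave 11 windows, of which 5 held peaks of at least 2 replicates (45.5%, near the 49.0% of all windows, median highest 6.48). AC009495.2 (chr2:166649361-166653361), divergent to GALNT3, an enzyme that starts mucin-type O-glycosylation, had 8.24, 7.02 and 10.01 in replicates 1 to 3, with summits 565 to 653 bp upstream of its centre and 396 to 484 bp from that of GALNT3. The guanine runs in capitals above lie in the GALNT3 promoter, 74 bases before its RefSeq start. That start is of another build and was not compared with the centre of GALNT3's window, so the distance from summits to motif is not known. RP11-552D8.1 on chromosome 1, opposite LPGAT1, a lysophospholipid acyltransferase, had 8.65, 7.49 and 6.46 in replicates 1 to 3, with summits 30 to 99 bp from the gene's centre and 827 to 956 bp from its own. RP11-632K5.3 at P4HA3, a collagen prolyl hydroxylase subunit, had 8.65, 5.39 and 4.70 in replicates 1, 3 and 4, and RP11-154J22.1 at DUT, which removes dUTP, had 6.09, 5.32 and 5.58 in replicates 2 to 4. RP13-314C10.5 at SAT1, an enzyme of polyamine breakdown, had 11.2 in replicate 1 only, so a high value did not always go with replicate support.

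The list of adhesion and membrane partners also holds ESRP1, which acts in splicing. It gave 9 windows, of which 4 held peaks of at least 2 replicates (44.4%, near the 49.0% of all windows, median highest 6.17). RP11-22C11.2 (chr8:95649695-95653695), divergent to ESRP1, a splicing regulator of epithelial cells, had 9.58, 6.40, 10.6 and 5.37. Its highest summits lay 1447 to 1540 bp upstream of its own centre and 67 to 160 bp from that of ESRP1. RP11-1094H24.4 at ITGA3, an integrin subunit, had 6.45, 4.35 and 4.34 in replicates 1, 3 and 4, with summits 66 to 83 bp from the gene's centre. RP11-272P10.2 at MPDZ, whose 2 peaks do not overlap, and RP11-131N11.4 at ANK3 had 2 replicates each. The windows at ITGA7, COL6A2, APP, MARVELD3 and TSPAN5 had 1 each. At ESRP1 and ITGA3 the highest summit thus lay nearer to the gene's centre in every replicate with a peak.

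Ubiquitin partners gave 5 windows, of which 2 held peaks of at least 2 replicates, where 49.0% of all windows did (median highest 6.09). RP11-848P1.2 on chromosome 17, on the strand of RNF135, a ubiquitin ligase of antiviral signalling, had 13.3, 5.33, 9.73 and 5.94, which differ 2.50-fold between highest and lowest. Its summits lay 2214 to 2633 bp from the centre of RNF135, and the window of RNF135 itself held a peak of 1 replicate only. RP11-860B13.1 at KLHL42, an adaptor of a cullin ligase, had 6.09 and 4.77 in replicates 1 and 2, and RP11-138I1.4 at UBB, a polyubiquitin gene, had 5.40 in replicate 4 only. Channel and neuronal partners gave 7 windows, of which 2 held peaks of 2 replicates, beside the same 49.0% (median highest 7.05), namely RP11-88H9.2 at KCND3, a potassium channel (5.79 and 5.44), and RP11-676J15.1 at NETO1 (7.32 and 6.09). The 2 peaks at NETO1 do not overlap. The windows at AQP5, a water channel, AUTS2, SNTG2, DPYSL4 and APBA1 had 1 replicate each.

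Duplicated copies gave 12 windows, of which 10 held peaks of at least 2 replicates and 5 of all 4, with a median highest fold enrichment of 7.61. The share over all windows with at least 2 replicates was 49.0%, and windows of this list share peaks. Beside the MIR3180 and BOLA2 windows above, RP11-313P13.3 at STAG3L3 had 9.38, 5.67, 6.40 and 4.10. RP11-1437A8.3 at TP53TG3C had 6.19, 7.26, 6.88 and 6.42. Its summits lay 2046 to 2199 bp from the centre of TP53TG3C, and the window of TP53TG3C itself held peaks of 2 replicates. RP11-586K12.8 at TP53TG3 had 4.84, 5.39 and 6.04 in replicates 1, 3 and 4, and AC138783.13 at GTF2IP1 had 4.88 and 5.09 in replicates 2 and 4. The HERC2 pseudogenes divided, with RP11-586K12.4 and RP11-586K12.5 at HERC2P5 sharing peaks of replicates 1 and 3 (6.08 and 7.32) and RP11-19N8.6 and RP11-19N8.7 at HERC2P8 sharing 1 of replicate 1 (7.91). How the authors' alignment placed reads that fit several copies is not given in the sources used here, and its part in these values was not tested.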

How the data were processed

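BG4 ChIP-seq of 4 C4-2 replicates was analysed from 1 peak list each. The submitters' processing notes name bcl2fastq 1.8.4, Bowtie2 2.2.5, SAMtools 1.11, MACS2 2.1.1 and hg19, and the study's text names hg38, although the positions fit GRCh37. Per the file headers and format, the authors deposited fold enrichment as a ratio over local background at the summit, −log10 p-values and q-values, a summit offset, and a score that is the whole part of 10 times the −log10 q-value. The p-values and score were not used here. Peaks were assigned to windows at 1 bp of overlap. Windows came from the study's supplementary table, and their centre is its start plus 2000 bp. The members, gene lists and tests were chosen with earlier results of these data known. Named are the 10 highest places in all 4 replicates, windows whose partner is in 1 of 7 gene lists, and groups of 3 or more clone-named windows. A two-sided exact permutation test flipped the sign of each replicate's difference. The labels call the libraries replicates, and p-values measure only the spread between them. Precision cannot be derived from depth, which is unknown. Counts of replicate support and of windows with a peak, shares of summits near the centre and the sign flips were tested on 1200 simulated windows. These did not overlap, so the steps for partners and pairs were not covered. Scripts ran in Python 3.11.15 (pandas 2.3.3, matplotlib 3.10.9, scipy 1.17.1, numpy 2.4.6).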

Additional observations from a re-analysis of the deposited data

Results flagged for a closer look

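Of 23 measures by replicate, 2 had a replicate far from the other 3, where chance gives about 1 in 20. The median width of the highest peak in clone-named windows was 343 bp in replicate 1 and 372, 372 and 373 bp in replicates 2 to 4. The median fold enrichment in clone-named windows with no overlapping window was 6.95 in replicate 1 and 6.36, 6.37 and 6.43 in the others. Replicate 1 is also the list with the most peaks.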

How the results depend on the processing

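The lower share of summits near the centre of clone-named windows kept its direction in 15 of 15 alternatives (-23.4 to -11.0 percentage points), the gene partner difference in 11 of 11 (1.04 to 13.8) and the distance difference in opposite-strand pairs in 11 of 11 (127 to 270 bp). With the 3000 strongest peaks of each replicate by q-value, 46 windows had at least 2 replicates and 14 all 4, which fewer peaks bring about. Without the mitochondrial-like windows 28 had all 4, and leaving out 1 replicate gave 48 to 69 in all remaining ones, with 69 without replicate 4. The difference in the share of windows with a peak turned to -1.76 with windows narrowed to 1000 bp each side and to -0.179 without mitochondrial-like windows. The difference in median fold enrichment turned to -0.00572 at a −log10 q of at least 4, to -0.403 with the 3000 strongest peaks, to -0.0358 in narrowed windows and to -0.0773 without replicate 1 (range -0.0773 to 0.177 with 1 replicate left out). The cause was not tested. The tests compared sets of windows within each replicate. Depth is unknown and limits what a missing peak can show.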
